A study of Mus musculus with 17 samples.

Results

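The cytochrome P450 family of the small-intestinal epithelium was described in pups nursed by dams with and without IgA. All 17 libraries came from Igha -/+ pups on a C57BL/6 background, so pups of both dams carried the same genotype at the IgA heavy-chain gene. The groups were a C57BL/6 dam (B6 dam) and an Igha-/- dam (IgA-null dam), each at days of life 14, 24 and 42. There were 2 libraries for the B6 dam at day 24 and 3 in each of the other groups. The cells were sorted as EpCAM+ CD45- Ter119-, a gate for epithelial cells without leukocytes or red cells, so each library mixes enterocytes with the other epithelial types. The labels give neither litters nor the dam of each pup, and p-values therefore measure the spread between these samples. Members were the genes named Cyp, number, letter, number that reached 1 TPM in at least 2 libraries. TPM is transcripts per 1000000 transcripts, a level per length of transcript that can be compared between genes. Of 93 such symbols 27 passed, in 16 subfamilies, and 66 did not, 4 of them at 0 in every library. The rule left out 1 further symbol. Recovered depth was 8719984 to 18490825 reads per library.

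Cytochromes P450 are haem proteins that add oxygen to a substrate. Those of the endoplasmic reticulum receive electrons from the reductase encoded by Por, helped by cytochrome b5, while mitochondrial members receive them through ferredoxin. In the intestine the enzymes of families 2 and 3 oxidise drugs, plant compounds and steroids on their way from the lumen to the liver, and those of family 4 hydroxylate fatty acids and eicosanoids. Many of the genes are targets of nuclear receptors such as the pregnane X receptor (Nr1i2), the constitutive androstane receptor (Nr1i3) and HNF4, and some of the aryl hydrocarbon receptor.

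Promoters are shown for 4 members. Cyp4f14 is the 1 member with all day 14 libraries below the later ones and Cyp2w1 one of 3 with all above them, and Cyp2c65 and Cyp2c68 are both on chromosome 19 and both hold the HNF4 core. Each is the 250 bases before the start in RefSeq (GRCm38.p6), 5′ to 3′ on the gene's strand. Capitals mark the aryl hydrocarbon receptor core GCGTG, here as its reverse complement CACGC, and the HNF4 core CAAAGTCCA.
Cyp4f14: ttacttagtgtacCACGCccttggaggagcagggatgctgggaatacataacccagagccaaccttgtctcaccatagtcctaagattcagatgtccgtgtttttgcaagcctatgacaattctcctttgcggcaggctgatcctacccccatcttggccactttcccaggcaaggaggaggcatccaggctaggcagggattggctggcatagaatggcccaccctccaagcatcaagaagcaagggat
Cyp2w1: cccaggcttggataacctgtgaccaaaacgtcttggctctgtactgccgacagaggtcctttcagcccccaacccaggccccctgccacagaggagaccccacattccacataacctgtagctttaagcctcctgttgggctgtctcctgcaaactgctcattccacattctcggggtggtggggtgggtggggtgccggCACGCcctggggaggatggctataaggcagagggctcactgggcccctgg
Cyp2c65: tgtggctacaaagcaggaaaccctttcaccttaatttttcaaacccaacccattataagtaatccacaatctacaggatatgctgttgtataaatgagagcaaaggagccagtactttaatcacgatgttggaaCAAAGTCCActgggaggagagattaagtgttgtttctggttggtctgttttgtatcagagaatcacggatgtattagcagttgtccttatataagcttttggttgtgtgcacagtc
Cyp2c68: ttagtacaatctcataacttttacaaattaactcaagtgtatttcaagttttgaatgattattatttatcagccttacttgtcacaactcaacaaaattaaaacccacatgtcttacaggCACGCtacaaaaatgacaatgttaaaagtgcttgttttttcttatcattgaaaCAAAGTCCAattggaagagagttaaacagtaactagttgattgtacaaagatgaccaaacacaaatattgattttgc
The Cyp4f14 stretch is chr17:32917357-32917606 on the minus strand, the first of 4 starts listed, and that of Cyp2w1 is chr5:139352366-139352615 on the plus strand. Cyp2c65 is shown from chr19:39060756-39061005 on the plus strand and Cyp2c68 from chr19:39741102-39741351 on the minus strand. RefSeq promoters matched 22 of the 27 members. Searched on both strands from 250 bases before to 50 after the start, GCGTG was present in 8 of these 22 and in 32.5% of 27025 promoters. CAAAGTCCA was present in 3 of the 22, Cyp2c65, Cyp2c68 and Cyp3a11, and in 0.477% of all promoters. These are matches of letters and do not show binding.

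A pair of libraries stood apart from the others of their groups, B6 dam day 24 replicate 2 and B6 dam day 42 replicate 1. Summed over the 27 members, the family was at 590.0 TPM in the first, against 105 in replicate 1 of its group. In the second it was at 357 TPM, against 88.3 and 117. In the other 4 groups the sum ran from 84.3 to 229 TPM.

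Replicate 2 at day 24 was the highest of all 17 libraries for 13 members, as it was for 4.12% of the 15066 genes tested. It exceeded replicate 1 by more than 2-fold for 17 members, against 7.91% of all genes, and was below it for 5. Replicate 1 at day 42 exceeded both other libraries of its group by more than 2-fold for 11 members, against 2.8% of all genes, and these 11 were also more than 2-fold higher in the day 24 library. Cyp2d22, counted for both libraries, reached 1 TPM in them alone, so the level limit fixed its place in these counts. The ratio was largest for Cyp2c55 at day 24, at 56.5, and for Cyp3a11 at day 42, at 31.9 times the higher of the other libraries. Cyp20a1 and Cyp39a1, a sterol hydroxylase, were lower in both libraries, with ratios of 0.441 and 0.303 to replicate 1 at day 24.

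Markers of mature enterocytes moved with the same libraries. All 8 adult enterocyte markers were more than 2-fold higher in the day 24 library than in replicate 1 of its group, and their summed level was 3175 against 462 TPM. At day 42, 6 of the 8 were more than 2-fold above both other libraries, with a sum of 1435 against 288 and 441 TPM. Stem cell markers summed to 338 against 1081 TPM at day 24, where 5 of the 6 were more than 2-fold lower, and to 554 against 828 and 1063 TPM at day 42. Paneth markers were also high in the day 42 library, at 8733 TPM against 848 and 2523. Of the other epithelial lists, 5 of 8 proximal segment, 5 of 8 distal segment and 5 of 10 suckling enterocyte markers were more than 2-fold higher in the day 24 library, and 3 of 7 enteroendocrine markers more than 2-fold lower. In the day 42 library 2 of 8 proximal, 4 of 8 distal, 4 of 10 suckling and 5 of 6 Paneth markers were more than 2-fold above both others, while 5 of 7 enteroendocrine and 2 of 6 tuft markers were more than 2-fold lower. No goblet marker passed that ratio in either library. The part of these markers in the P450 levels was not tested, and fewer cells of a type cannot be told apart from less RNA per cell in bulk samples. Of 10 hepatocyte markers 8 stayed below 1 TPM in every library, and Alb did not exceed 0.165 TPM. The other 2, Ttr and Serpina1a, fell from day 14 to 24 in both dams on both scales, and the summed list was at 11.3 to 29.2 and 8.82 to 14.0 TPM at day 14 under the B6 and IgA-null dams and at 1.57 to 2.51 and 1.83 to 2.45 TPM at day 24. Epcam was at 153 to 500.0 TPM and Ptprc, which encodes CD45, at no more than 0.806 TPM. Of 8 leukocyte markers 3 were tested, and under the B6 dam the summed list was at 3.67 to 10.2 TPM at day 14, 22.99 to 33.9 at day 24 and 92.3 to 114 at day 42. Under the IgA-null dam it was at 2.63 to 4.61, 5.7 to 31.4 and 55.0 to 109 TPM, and the part of these changes in the P450 levels was not tested. Most of that sum was Cd74, a chain of MHC class II that epithelium also makes, with means of 1.64 and 103 TPM at days 14 and 42 under the B6 dam. Cd74 and Itgam rose from day 14 to 42 in both dams on both scales, and Csf1r fell under the B6 dam.

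**Figure D1:**
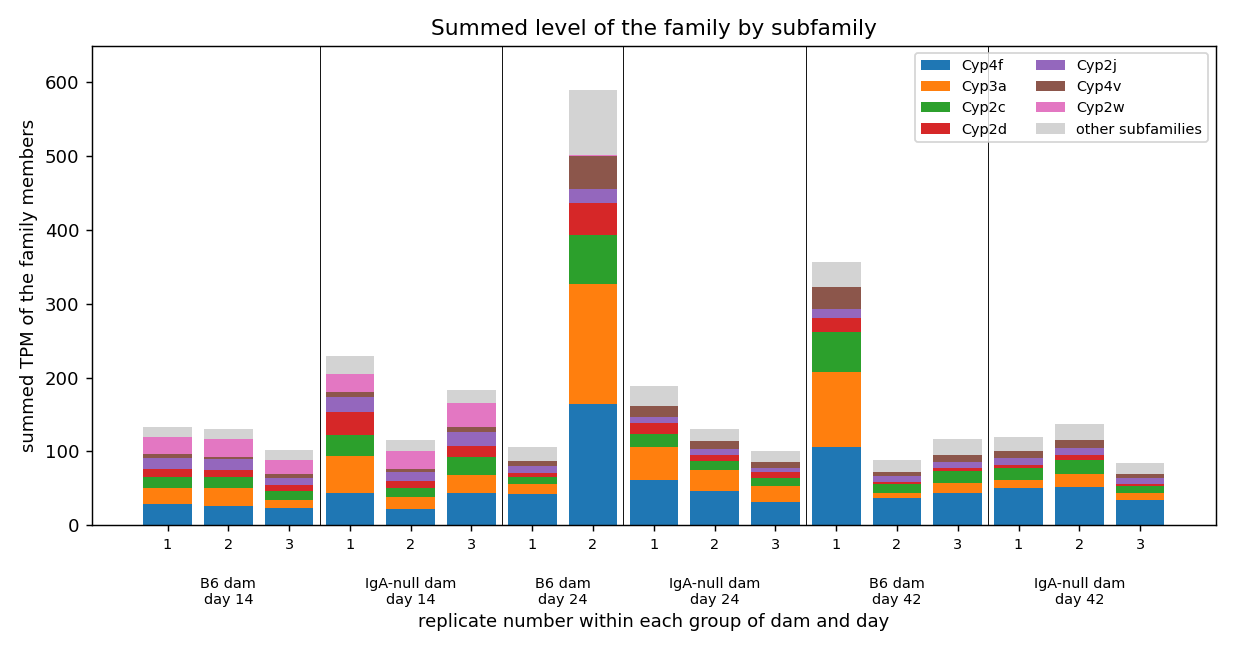
Summed TPM of the 27 members in each library, stacked by subfamily, with libraries grouped by dam and day. B6 dam day 24 replicate 2 (590.0 TPM) and B6 dam day 42 replicate 1 (357 TPM) rise above the other bars, and the Cyp2w part is seen at day 14.

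The share of TPM outside the small RNA gene model Gm23935 and the mitochondrial genes ran from 10.3% in an IgA-null dam library at day 24 to 30.9% in one at day 14. Most genes therefore shift together between those groups, and changes are given as deposited or after correction with size factors by the median-of-ratios method (0.479 to 1.81), called scaled. Changes are log2 differences of TPM + 1, which understate those of low genes, tested with limma over all genes at a Benjamini-Hochberg adjusted p under 0.05. A date in the labels is the same for both dams at day 42, and for days 24 and 42 under the IgA-null dam. In every other comparison the date differs between the groups, and date and group cannot be told apart. The library names in the labels also carry a letter whose meaning they do not give, F for every library of the IgA-null dam and M for every library of the B6 dam, so letter and dam cannot be told apart at any age.

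Levels differed widely between members, and the 10 highest held 74.5% of the summed mean TPM. By mean over the 17 libraries the order was led by Cyp4f14, a hydroxylase of leukotriene B4 and vitamin E, at 28.4 TPM. The steroid and drug oxidases Cyp3a13 and Cyp3a25 followed at 17.4 and 12.6 TPM, then Cyp2d26 at 11.4, Cyp4v3 at 10.96 and Cyp2j6 at 10.4 TPM. Cyp4f16, Cyp2c65, Cyp2w1 and Cyp4f40 closed the first 10 at 9.67, 9.57, 8.9 and 8.2 TPM. These means hide wide ranges over the libraries, from 2.74 to 139 TPM for Cyp4f14, and the order of neighbours rests in part on the libraries that stood apart. In all, 12 members were at 1 TPM or more in every library and 3 had means under 1 TPM. Just inside the limit, Cyp2d22 reached 1 TPM in 2 libraries and Cyp4f17 and Cyp2t4 in 3. Just outside it, Cyp2c44, Cyp2c29 and Cyp1a1, a classical target of the aryl hydrocarbon receptor, reached 1 TPM in 1 library each, with highest levels of 1.2, 3.76 and 1.18 TPM.

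**Figure D2:**
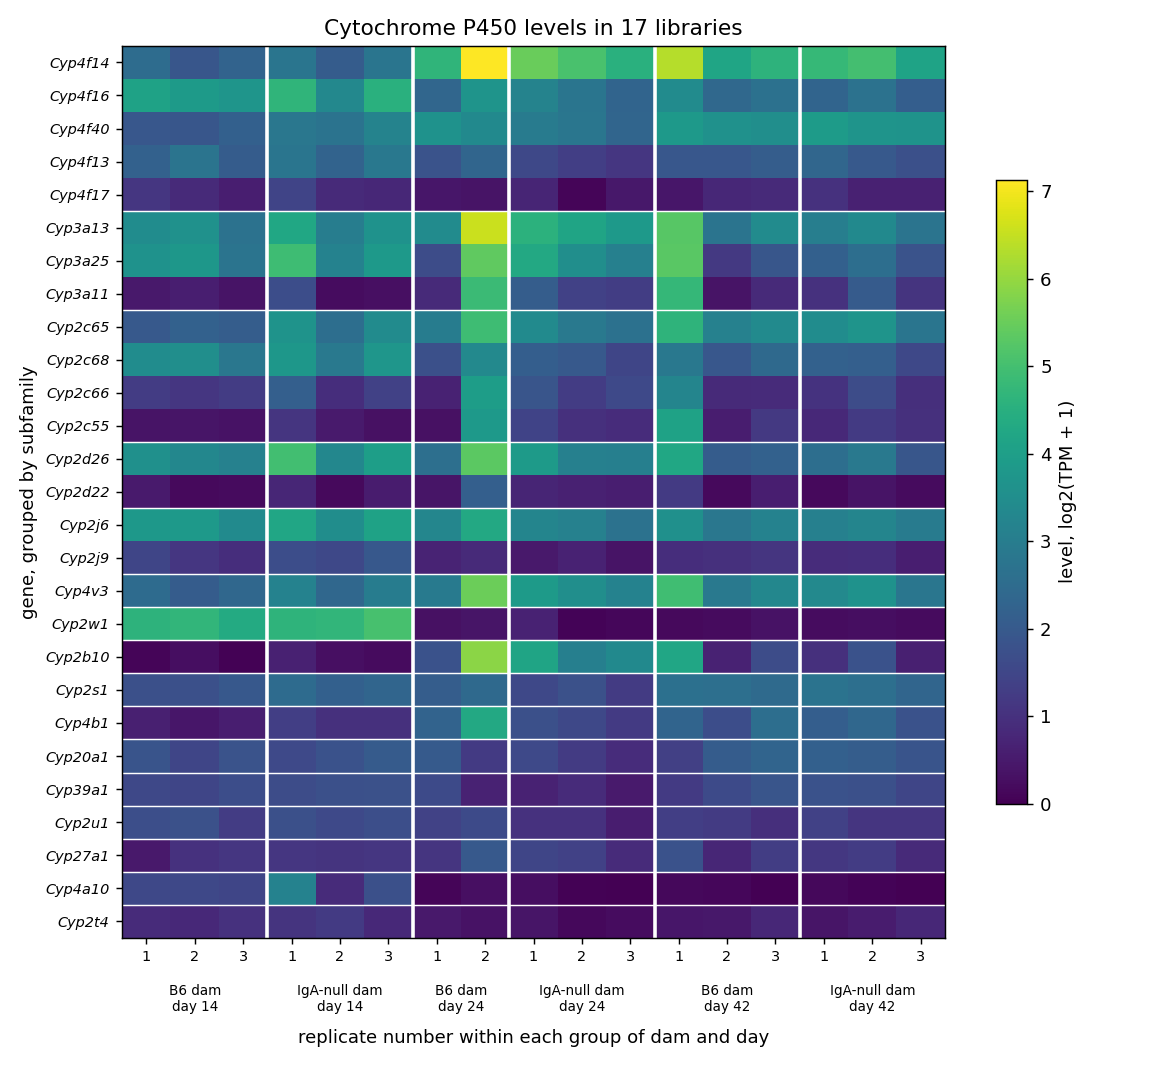
Level of each of the 27 members, as log2(TPM + 1), in the 17 libraries by dam, day and replicate, with subfamilies separated by lines. Cyp2w1 is bright in the 6 day 14 libraries and dark in the 11 later ones, Cyp4f14 the reverse, and B6 dam day 24 replicate 2 and day 42 replicate 1 stand out as bright columns.

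A few members changed with age, in both directions. Cyp2w1, Cyp4a10 and Cyp2t4 reached the 1 TPM limit only in day 14 libraries, and Cyp2b10 and Cyp2d22 only in later ones. These genes had to differ with age to be members, and the counts below are a description. From day 14 to 24 in pups of the B6 dam 5 members rose and 1 fell of 27, against 8.61% of all genes called (1.62% higher and 6.99% lower). After scaling the counts were 6 and 1, against 13.6% of all genes (7.54% higher and 6.1% lower), and the earlier 6 were among them. The median log2 change of the members was 0.47 as deposited against -0.29 over all genes, and 0.81 against a median near 0 over all genes after scaling. These medians rest on the libraries that stood apart: without both, the median over the 26 members then tested was -0.12 as deposited and -0.07 scaled, against -0.08 and a median near 0 over all genes. In the fit without both libraries that stood apart 5 members were called as deposited and 7 scaled, against 4.32% and 8.43% of all genes. Without replicate 1 at day 24 alone 16 members were called, against 28.6%, and without replicate 2 alone 4, against 3.23%. With the IgA-null dam the deposited values gave 2 rises and 12 falls, but 83.8% of all genes were called (0.863% higher and 82.9% lower) and their median change was -1.02. After scaling 3 members rose and 2 fell, against 16.9% of all genes (8.12% higher and 8.8% lower). Cyp4f14 and Cyp2b10 rose and Cyp2w1 and Cyp4a10 fell on both scales. The other 10 falls, among them Cyp4f16, Cyp2c68, Cyp4f13 and Cyp2j6, were not called after scaling.

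Cyp2w1, known from the fetal gut and, in human, from colorectal tumours, was highest at day 14. Under the B6 dam it was at 23.3, 24.8 and 19.5 TPM at day 14, 0.259 and 0.325 at day 24 and 0.143, 0.167 and 0.282 at day 42. Cyp2w1 in pups of the IgA-null dam was at 24.06, 24.8 and 32.4 TPM at day 14, 0.618, 0.0407 and 0.0959 at day 24 and 0.178, 0.196 and 0.149 at day 42. The 6 day 14 libraries, at 19.5 TPM or more, did not overlap the 11 later ones, at 0.618 TPM or less. The ratio of the means between day 14 and day 24 was 77.1 in pups of the B6 dam and 108 in pups of the IgA-null dam. On the log2(TPM + 1) scale the fall to day 24 was -4.18 (SE 0.20, limma adjusted p = 4.69e-09) in pups of the B6 dam and -4.50 (SE 0.17, adjusted p = 2.55e-10) in pups of the IgA-null dam, and -3.89 and -3.73 after scaling. Recovered reads were 352 to 515 per library at day 14 and 1 to 14 later, so the later levels are imprecise. The call held when any library of these groups was left out. The gene lies at chr5:139352617-139357033 (GRCm38) and shares no 50-base stretch of its transcripts with another gene. It passed the level limit through the day 14 libraries alone, which bears on all its age tests. In a fit with no level limit on any gene the adjusted p of the changes to day 24 was 7.16e-08 and 2.62e-08.

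Cyp4a10, a fatty acid hydroxylase and target of PPAR-alpha in mouse, was the other member that fell on both scales. In B6 dam pups its values were 1.92, 1.9 and 1.81 TPM at day 14, 0.0621 and 0.214 at day 24 and 0.103, 0.096 and 0 at day 42. Cyp4a10 in pups of the IgA-null dam was at 7.92, 0.824 and 2.32 TPM at day 14, 0.191, 0.0293 and 0 at day 24 and 0.103, 0.0469 and 0 at day 42. Day 14 libraries were again all higher than later ones, from 0.824 TPM upward against at most 0.214 TPM, and IgA-null dam replicate 1 was far above its group. The change to day 24 in pups of the IgA-null dam was -1.82 (adjusted p = 0.000292) and -1.33 after scaling (adjusted p = 0.0159). Among B6 dam pups it was -1.34 and not called at day 24 (adjusted p = 0.0507), and -1.43 at day 42 (adjusted p = 0.0191). That call was lost without B6 dam day 14 replicate 1 or 2 or day 42 replicate 2 or 3, with adjusted p of 0.0503 to 0.0649. It too passed the level limit through day 14 libraries alone, and with no limit on any gene the adjusted p was 0.00172 for the IgA-null dam to day 24 and 0.0685 for the B6 dam to day 42, where the call was lost. Reads were 18 to 161 at day 14 and 0 to 11 later, and 29.8% of its 50-base windows are shared with other genes, mainly Cyp4a31 and Cyp4a32, so its counts are uncertain. Cyp2t4, at 0.771 to 1.31 TPM at day 14 and 0.114 to 0.726 TPM later, also had day 14 libraries above all later ones. Its scaled changes were not called. Of all genes tested, 12.2% had all day 14 libraries above the later ones, and since the 3 members with that order passed the limit through those libraries, nothing is read from their number.

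In the 4F subfamily, whose enzymes hydroxylate fatty acids and leukotrienes, Cyp4f14 and Cyp4f40 rose with age while Cyp4f16, Cyp4f13 and Cyp4f17 did not pass after scaling. Cyp4f14 in pups of the B6 dam was at 4.77, 2.74 and 3.84 TPM at day 14, 24.404 and 139 at day 24 and 79.2, 17.4 and 23.4 at day 42. With the IgA-null dam Cyp4f14 was at 5.78, 3.21 and 5.83 TPM at day 14, 44.1, 32.7 and 21.9 at day 24 and 26.6, 31.1 and 16.4 at day 42. Every day 14 library lay below every later one, the highest at 5.83 and the lowest later one at 16.4 TPM, as for 0.339% of all genes and no other member. From day 14 to 24 it rose by 3.66 (SE 0.62, limma adjusted p = 0.00144) in pups of the B6 dam and by 2.49 (SE 0.56, adjusted p = 0.000696) in pups of the IgA-null dam. After scaling the rises were 4.05 and 3.82. Without both libraries that stood apart the deposited rise in pups of the B6 dam was 2.43 (adjusted p = 0.00559), with 1 B6 dam library left at day 24. At day 42 the change from day 14 was 2.81 (adjusted p = 0.00374) in pups of the B6 dam and 2.10 (adjusted p = 0.01) in pups of the IgA-null dam. These comparisons share the day 14 libraries.

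Cyp4f40 rose with a smaller spread between libraries. Under the B6 dam it was at 2.81, 2.78 and 3.57 TPM at day 14, 11.3 and 9.42 at day 24 and 13.4, 11.3 and 10.6 at day 42. Cyp4f40 in pups of the IgA-null dam was at 6.03, 5.56 and 8.11 TPM at day 14, 6.85, 6.01 and 3.97 at day 24 and 14.06, 11.9 and 11.7 at day 42. The B6 dam libraries rose without overlap, by 1.49 to day 24 (SE 0.22, limma adjusted p = 0.000424), and the day 24 library that stood apart was not the higher one here. In IgA-null dam pups the deposited values overlapped between days 14 and 24 (change -0.21, adjusted p = 0.328), whereas the scaled change was 1.06 (adjusted p = 0.00312). To day 42 it rose on both scales, by 1.65 in pups of the B6 dam and 0.85 in pups of the IgA-null dam as deposited (adjusted p = 3.54e-05 and 0.0047). Cyp4f16 had the opposite sign as deposited. Its levels in pups of the B6 dam were 16.4, 13.9 and 12.2 TPM at day 14, 4.12 and 11.9 at day 24 and 9.83, 4.28 and 5.33 at day 42. Cyp4f16 in pups of the IgA-null dam was at 24.5, 9.06 and 22.2 TPM at day 14, 8.15, 5.83 and 3.95 at day 24 and 3.94, 5.46 and 3.41 at day 42, all later values below those of day 14. As deposited, 79.9% of all genes at day 24 and 59.3% at day 42 also lay wholly below day 14 under this dam. The change of -1.42 to day 24 in pups of the IgA-null dam (adjusted p = 0.00298) was -0.09 after scaling (adjusted p = 0.915). Without both libraries that stood apart, however, the scaled change in pups of the B6 dam was -1.45 to day 24 and -1.31 to day 42. The first of these rests on 1 B6 dam library at day 24. Shared windows make up 17.4% of Cyp4f16 but 2.39% of Cyp4f14 and 1.6% of Cyp4f40.

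**Figure D3:**
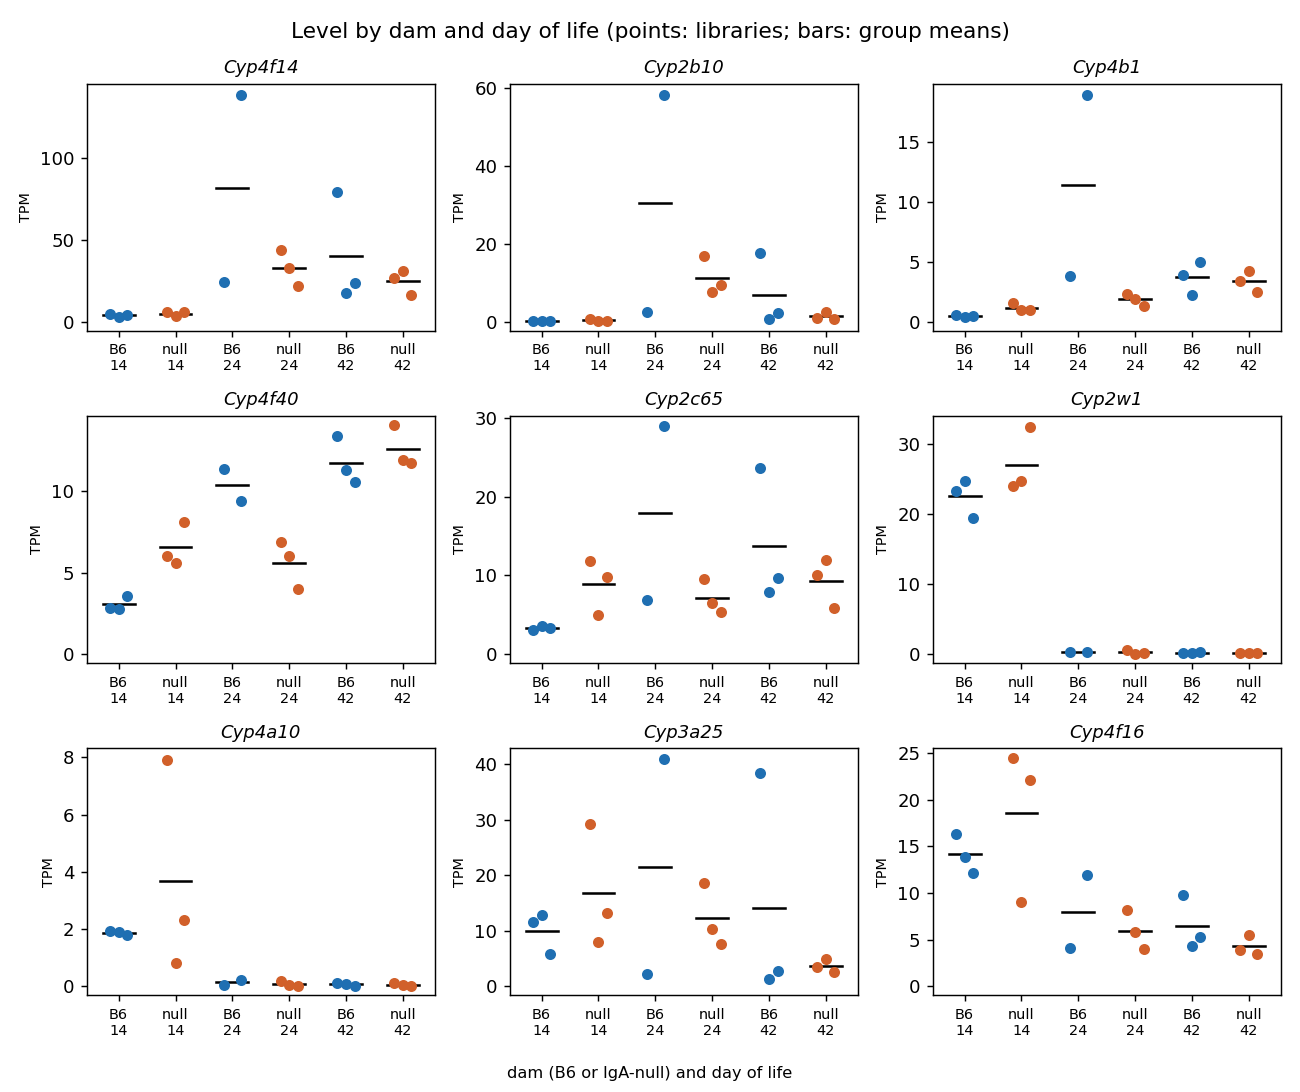
TPM of 9 members in each library (points) with group means (bars), by dam (B6 blue, IgA-null orange) and day of life, each panel with its own scale. Cyp2w1 and Cyp4a10 drop after day 14 and Cyp4f14 is higher later. Cyp4f40 is also higher later, except under the IgA-null dam at day 24. For Cyp4f14, Cyp2b10, Cyp4b1, Cyp2c65 and Cyp3a25 a single point lifts the B6 mean at day 24.

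Cyp2b10, a drug oxidase and target of the constitutive androstane receptor, rose to day 24. It was at 0.065, 0.211 and 0.0317 TPM at day 14, 2.46 and 58.2 at day 24 and 17.6, 0.599 and 2.15 at day 42 in pups of the B6 dam. Cyp2b10 in pups of the IgA-null dam was at 0.589, 0.229 and 0.148 TPM at day 14, 16.8, 7.48 and 9.34 at day 24 and 0.999, 2.46 and 0.556 at day 42. All day 24 libraries lay above all day 14 libraries, and at day 42 the values lay below those of day 24 in pups of the IgA-null dam. From day 14 to 24 the rise was 3.15 (SE 0.84, limma adjusted p = 0.00257) in pups of the IgA-null dam and 3.70 (SE 0.94, adjusted p = 0.0215) in pups of the B6 dam. The gene passed the level limit through day 24 and 42 libraries alone, and with no limit on any gene the adjusted p was 0.0136 for the IgA-null dam and 0.0852 for the B6 dam, where the call was lost. Both passed after scaling, at 4.02 and 3.94, and neither passed with limma-voom on the recovered reads (adjusted p = 0.144 and 0.187). The rise in pups of the B6 dam was 1.65 without day 24 replicate 2 (adjusted p = 0.466) and was not called without day 14 replicate 1 or 2 (adjusted p = 0.055 and 0.0559). Day 14 libraries held 1 to 12 reads. From day 24 to 42 in pups of the IgA-null dam it fell by 2.39 (adjusted p = 0.0282), which was -3.17 after scaling (adjusted p = 0.0894). That call was lost without IgA-null dam day 24 replicate 1 or 3 or day 42 replicate 1 or 3, with adjusted p of 0.0662 to 0.079, and with no level limit (adjusted p = 0.0999).

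Cyp4b1, which hydroxylates fatty acids and activates some plant toxins, rose in pups of the B6 dam. Its levels were 0.548, 0.355 and 0.504 TPM at day 14, 3.81 and 18.9 at day 24 and 3.91, 2.24 and 4.95 at day 42. Cyp4b1 in pups of the IgA-null dam was at 1.52, 0.984 and 0.967 TPM at day 14, 2.32, 1.91 and 1.31 at day 24 and 3.38, 4.19 and 2.5 at day 42. The B6 dam groups did not overlap between day 14 and later days, and replicate 2 at day 24 was the highest of all. The rise to day 24 was 2.74 (SE 0.41, limma adjusted p = 0.000491). It was 1.71 without both libraries that stood apart, with 1 B6 dam library left at day 24. Among IgA-null dam pups the deposited change to day 24 was 0.39 (adjusted p = 0.318). The deposited rise of 1.01 to day 42 (adjusted p = 0.0388) was lost when any 1 library of either group was left out. In those fits the adjusted p was 0.0548 to 0.114. After scaling the IgA-null dam libraries were at 0.933, 0.712 and 0.533 at day 14 and 3.23, 3.51 and 2.74 at day 24. At day 42 they were at 3.1, 4.0 and 2.56. The scaled values of both later days lay above those of day 14, but neither scaled change was called. Cyp2s1, a dioxin-inducible enzyme found outside the liver, was at 2.35, 2.33 and 2.87 TPM at day 14, 3.3 and 4.47 at day 24 and 5.22, 5.07 and 4.49 at day 42 in pups of the B6 dam. Cyp2s1 in pups of the IgA-null dam was at 4.66, 3.56 and 3.98 TPM at day 14, 1.93, 2.44 and 1.37 at day 24 and 5.55, 5.09 and 4.04 at day 42, lowest at day 24. With the B6 dam the rise to day 42 was 0.75 (adjusted p = 0.00923) and held on both scales. Under the IgA-null dam the fall to day 24 (-0.81) and the rise from day 24 to 42 (1.03) passed as deposited, while the scaled changes were 0.27 and 0.41 and did not pass.

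Of the 2C members, which oxidise arachidonic acid and drugs, Cyp2c65 was the 1 called with age after scaling over all 17 libraries, and all 4 were more than 2-fold higher in B6 dam day 24 replicate 2 than in replicate 1. Cyp2c65 was at 2.99, 3.6 and 3.26 TPM at day 14, 6.93 and 29.01 at day 24 and 23.7, 7.83 and 9.67 at day 42 in pups of the B6 dam. Cyp2c65 in pups of the IgA-null dam was at 11.8, 5.01 and 9.76 TPM at day 14, 9.56, 6.43 and 5.28 at day 24 and 10.01, 12.0 and 5.88 at day 42. As deposited, B6 dam day 14 libraries were all below later ones, and the libraries in pups of the IgA-null dam overlapped between ages. After scaling the IgA-null dam libraries were at 7.24, 3.62 and 5.38 at day 14 and 13.3, 11.8 and 11.03 at day 24, without overlap. At day 42 the scaled values were 9.18, 11.5 and 6.02, overlapping day 14. No change of Cyp2c65 with age was called under this dam. The rise in pups of the B6 dam was 1.85 to day 24 and 1.63 to day 42 (limma adjusted p = 0.0315 and 0.0311). Leaving out B6 dam day 24 replicate 2 gave 0.89 (adjusted p = 0.531), and leaving out day 14 replicate 1, 2 or 3 gave adjusted p of 0.0655 to 0.0799. The call at day 42 was lost without day 42 replicate 1 (1.18, adjusted p = 0.154) or any day 14 library (adjusted p = 0.0735 to 0.0972). Cyp2c68, whose promoter holds the same HNF4 core, was at 9.998, 10.5 and 6.13 TPM at day 14, 2.33 and 9.29 at day 24 and 6.17, 2.82 and 4.37 at day 42 in pups of the B6 dam. Cyp2c68 in pups of the IgA-null dam was at 12.7, 6.38 and 12.5 TPM at day 14, 3.38, 3.01 and 1.83 at day 24 and 3.61, 3.47 and 1.94 at day 42, with all later values below day 14. The same order under this dam was seen for 79.9% of all genes at day 24 and 59.3% at day 42. The fall to day 24 in pups of the IgA-null dam was -1.60 (adjusted p = 0.00103) as deposited and -0.38 after scaling (adjusted p = 0.591). Without both libraries that stood apart 1 B6 dam library was left at day 24. The scaled changes to day 24 in pups of the B6 dam were then -1.43 for Cyp2c68 and 0.96 for Cyp2c65. The difference between both genes was not tested. Cyp2c66 and Cyp2c55 stayed between 0.241 and 3.46 TPM in 15 libraries and reached 14.7 and 13.6 TPM in B6 dam day 24 replicate 2 and 8.5 and 16.2 TPM in day 42 replicate 1. Neither was called with age. Cyp2c68 shares 43.3% of its 50-base windows with other genes, mainly Cyp2c40, Cyp2c69 and Cyp2c67, and Cyp2c65 and Cyp2c66 share 20.6% and 19.5%, so reads of these genes could be split between copies.

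None of the 3A members, the main drug and steroid oxidases of the gut, was called with age in either dam. Cyp3a13 was at 10.01, 11.2 and 5.43 TPM at day 14, 9.93 and 93.4 at day 24 and 37.6, 5.72 and 9.81 at day 42 in pups of the B6 dam. Cyp3a13 in pups of the IgA-null dam was at 18.1, 7.06 and 11.5 TPM at day 14, 22.8, 17.1 and 13.1 at day 24 and 7.28, 9.39 and 5.75 at day 42. The scaled change to day 24 was 2.17 in pups of the B6 dam and 1.93 in pups of the IgA-null dam (adjusted p = 0.133 and 0.113). Cyp3a25 was at 11.5, 12.8 and 5.75 TPM at day 14, 2.16 and 40.9 at day 24 and 38.4, 1.26 and 2.77 at day 42 in pups of the B6 dam. Cyp3a25 in pups of the IgA-null dam was at 29.2, 8.02 and 13.2 TPM at day 14, 18.7, 10.4 and 7.66 at day 24 and 3.56, 4.94 and 2.52 at day 42, lowest at day 42. In B6 dam pups a fall to day 42 was called without both libraries that stood apart, at -1.78 after scaling (adjusted p = 0.0134), against -0.35 with them (adjusted p = 0.883). Cyp3a11, a target of the pregnane X receptor, was at 27.8 and 25.8 TPM in those libraries and at 0.171 to 3.33 TPM in the other 15.

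Cyp4v3, Cyp2d26 and Cyp2j6 complete the 10 highest members. Cyp4v3, the mouse counterpart of the fatty acid hydroxylase CYP4V2, was at 4.65, 3.25 and 4.25 TPM at day 14, 6.67 and 44.8 at day 24 and 29.5, 6.36 and 8.78 at day 42 in pups of the B6 dam. Cyp4v3 in pups of the IgA-null dam was at 7.92, 4.26 and 7.01 TPM at day 14, 13.8, 10.5 and 8.02 at day 24 and 9.26, 11.3 and 6.0 at day 42. It was not called with age, with scaled changes to day 24 of 2.29 and 1.99 (adjusted p = 0.0614 and 0.0609). Without both libraries that stood apart it was called from day 14 to 42 in pups of the B6 dam, at 0.79 scaled (adjusted p = 0.0221). Cyp2d26, of the subfamily of human CYP2D6, was at 10.9, 8.83 and 7.85 TPM at day 14, 5.04 and 39.5 at day 24 and 17.8, 3.2 and 3.67 at day 42 in pups of the B6 dam. Cyp2d26 in pups of the IgA-null dam was at 30.1, 8.92 and 14.9 TPM at day 14, 13.7, 7.54 and 7.4 at day 24 and 4.96, 6.41 and 2.72 at day 42. The change from day 14 to 42 in pups of the IgA-null dam was -1.63 as deposited (adjusted p = 0.0482), which was -1.06 after scaling (adjusted p = 0.372). That deposited call was lost without day 14 replicate 1 or 3 or any day 42 library, with adjusted p of 0.0639 to 0.176. Cyp2j6, which oxidises arachidonic acid, was at 13.0, 13.3 and 9.73 TPM at day 14, 8.73 and 18.6 at day 24 and 11, 6.11 and 8.0 at day 42 in pups of the B6 dam. Cyp2j6 in pups of the IgA-null dam was at 17.7, 10.4 and 16.2 TPM at day 14, 8.51, 7.8 and 5.41 at day 24 and 7.55, 8.46 and 6.87 at day 42. Its change to day 24 in pups of the IgA-null dam was -0.92 as deposited (adjusted p = 0.00569) and 0.43 after scaling (adjusted p = 0.418), so the sign depends on the scaling. Its scaled change from day 14 to 42 in pups of the B6 dam, without both libraries that stood apart, was -0.63 (adjusted p = 0.0196).

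The remaining members were low. Cyp4f13 was at 3.65, 5.67 and 3.23 TPM at day 14, 2.54 and 4.04 at day 24 and 2.84, 2.8 and 3.34 at day 42 in pups of the B6 dam. Cyp4f13 in pups of the IgA-null dam was at 5.79, 3.86 and 6.27 TPM at day 14, 1.93, 1.52 and 1.18 at day 24 and 4.13, 3.0 and 2.35 at day 42. It fell to day 24 and rose again to day 42 in pups of the IgA-null dam as deposited (-1.30 and 0.70), and neither passed after scaling. Cyp20a1, an enzyme without an established substrate, was at 2.0, 2.45 and 3.14 TPM at day 14, 1.99, 1.3496 and 0.891 at day 24 and 3.55, 3.33 and 2.61 at day 42 in pups of the IgA-null dam. Its change to day 42 with that dam was 0.65 after scaling (adjusted p = 0.0155) and 0.24 as deposited (adjusted p = 0.43). Cyp39a1 in pups of the IgA-null dam was at 2.14, 2.37 and 2.38 TPM at day 14, 0.592, 0.849 and 0.429 at day 24 and 2.46, 2.37 and 1.82 at day 42, lowest at day 24. From day 24 to 42 with that dam the rises of Cyp20a1 and Cyp39a1 were 0.81 and 0.99 as deposited (adjusted p = 0.0184 and 0.00458). After scaling they were 0.27 and 0.59, where neither passed. Cyp20a1 in pups of the B6 dam was at 2.64, 1.79 and 2.52 TPM at day 14 and 3.02 and 1.33 at day 24. At day 42 it was at 1.56, 3.19 and 3.88 TPM. Cyp39a1 in pups of the B6 dam was at 1.91, 1.81 and 2.19 TPM at day 14 and 2.04 and 0.619 at day 24. At day 42 it was at 1.32, 2.01 and 2.69 TPM. Cyp2u1, Cyp27a1, the mitochondrial sterol hydroxylase of bile acid synthesis, Cyp2j9, Cyp4f17 and Cyp2d22 ranged from 0.0729 to 3.47 TPM, and none of these 5 was called with age after scaling.

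**Figure D4:**
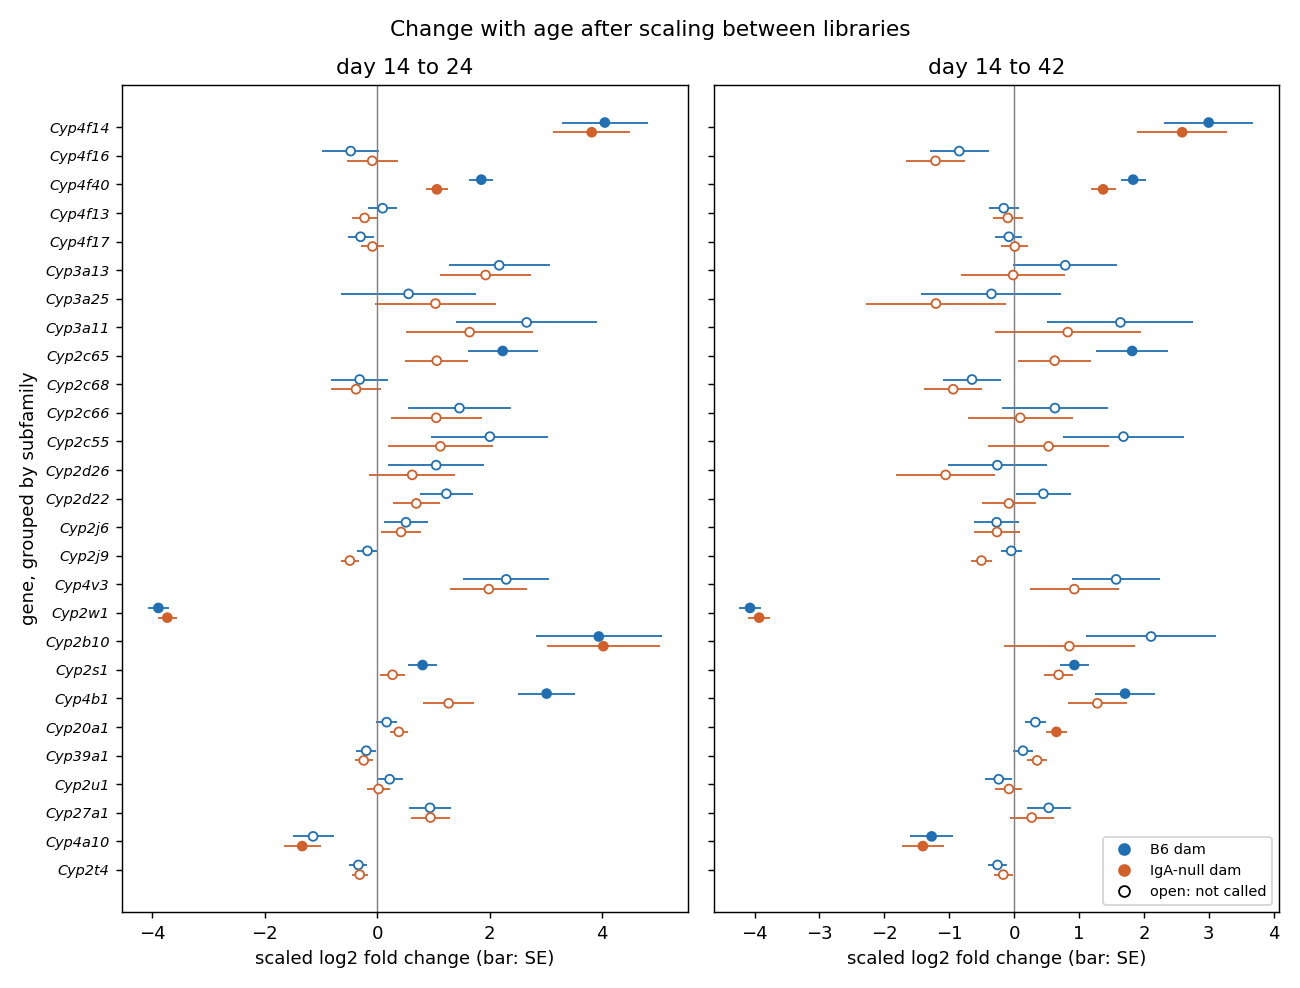
Scaled log2 change of each member from day 14 to 24 and from day 14 to 42 with its standard error, B6 dam blue and IgA-null dam orange, filled where the adjusted p was under 0.05. To day 24 Cyp4f14, at 4.05 and 3.82, and Cyp2b10, at 3.94 and 4.02, lie furthest right and Cyp2w1, at -3.89 and -3.73, furthest left, and most other points are open and near 0 or have wide errors.

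Over the whole interval from day 14 to 42, 5 members rose and 2 fell in pups of the B6 dam on either scale, against 9.11% of all genes called as deposited (2.78% higher and 6.33% lower) and 13.7% after scaling (7.28% higher and 6.44% lower). The rises were Cyp4f14, Cyp2c65, Cyp4f40, Cyp2s1 and Cyp4b1, and the falls Cyp2w1 and Cyp4a10. The set of members called with this dam depends on the libraries that stood apart. With both left out, the scaled changes of Cyp3a25, Cyp4f16, Cyp2c68 and Cyp2j6 were -1.78, -1.31, -1.03 and -0.63, and that of Cyp4v3 was 0.79. Among IgA-null dam pups 3 rose and 10 fell as deposited, against 40.7% of all genes (1.77% higher and 38.9% lower), and 3 rose and 2 fell after scaling, against 16.4% (8.09% higher and 8.28% lower). Cyp4f14 and Cyp4f40 rose and Cyp2w1 and Cyp4a10 fell on both scales. From day 24 to 42 no member was called in pups of the B6 dam (limma), where 0.0199% of all genes were called (0.0133% higher and 0.00664% lower), 1 member had an unadjusted p under 0.05 and limma-voom called 0. With the IgA-null dam 5 rose and 1 fell as deposited, against 49.3% of all genes (48.5% higher and 0.863% lower). After scaling 0 were called, against 2.75% (1.57% higher and 1.18% lower), with 5 members at an unadjusted p under 0.05 and 0 called by limma-voom. Suckling enterocyte markers changed over the same interval: in pups of the B6 dam 8 of 10 tested fell from day 14 to 24 as deposited and 7 after scaling, and their summed level was 353 to 1182 TPM at day 14 and 37.9 to 173 TPM at day 24. Under the IgA-null dam it was 259 to 506 TPM at day 14 and 47.3 to 85.2 TPM at day 24. Markers of other epithelial types also changed. From day 14 to 42 in pups of the B6 dam 7 of 7 goblet, 5 of 6 tuft and 3 of 6 Paneth markers rose on both scales, and 4 of 7 enteroendocrine markers as deposited and 6 after scaling. Of the markers tested in pups of the IgA-null dam, 6 of 6 tuft markers rose on both scales, while 0 goblet markers rose as deposited and 1 after scaling. The part of these marker lists in the P450 changes was not tested.

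Between the dams, 1 member was called at 1 age. At day 14 Cyp4f40 was at 2.81, 2.78 and 3.57 TPM in pups of the B6 dam and at 6.03, 5.56 and 8.11 TPM in pups of the IgA-null dam, without overlap. Such a separation, higher under the IgA-null dam as deposited, was seen for 5 of the 27 members and 45.1% of all genes. The means were 3.05 ± 0.445 TPM (SD, n = 3) and 6.57 ± 1.36 TPM (SD, n = 3), a log2 difference of 0.89 (SE 0.19, limma adjusted p = 0.0141). It was 0.50 after scaling (adjusted p = 0.166), and the adjusted p was 0.261 with limma-voom. Without B6 dam day 14 replicate 1 or 2 or IgA-null dam replicate 3 the adjusted p was 0.0551 to 0.0717. Over all genes 8.68% were called as deposited (8.32% higher and 0.358% lower) and 2.91% after scaling (1.89% higher and 1.02% lower), and the median difference was 0.33, near the members' 0.27. Differences were above 0 for all 27 members as deposited and for 14 after scaling. Cyp2c65 had the largest difference, 1.13 (adjusted p = 0.107), with 2.99, 3.6 and 3.26 TPM under the B6 dam all below 11.8, 5.01 and 9.76 TPM under the IgA-null dam, which did not pass. After scaling no member was called, 1 had an unadjusted p under 0.05, and limma-voom called 0. In the same libraries all 7 goblet and all 7 enteroendocrine markers were higher in pups of the IgA-null dam on both scales. Goblet markers summed to 511 to 779 TPM under the B6 dam and 2071 to 3806 TPM under the IgA-null dam, and enteroendocrine markers to 159.9 to 210.1 TPM and 1041 to 1539 TPM. Of the other epithelial lists, 2 of 6 Paneth and 3 of 6 tuft markers were called higher as deposited, and 1 and 2 after scaling. Of 10 suckling enterocyte markers 1 was called lower as deposited and 3 after scaling, with median differences of -0.69 and -1.08. Among 8 adult enterocyte markers 0 were called on either scale. The part of these lists in the level of Cyp4f40 was not tested.

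At day 24 no member was called between the dams, with a smallest limma adjusted p of 0.0595, against 0.0265% of all genes. At an unadjusted p under 0.05 there were 6 members as deposited and 1 after scaling, and limma-voom called 0. Differences ran from -1.80 for Cyp4b1 to 0.12 for Cyp3a25, and the median half-width of the 95% interval was 0.86 on the log2 scale. The result depends on B6 dam day 24 replicate 2. Without it and day 42 replicate 1, with 1 B6 dam library left at day 24 that is assumed to vary like the other groups, 7 members were called after scaling, all higher in pups of the IgA-null dam, against 2.74% of all genes. They were Cyp3a25 (2.84, adjusted p = 0.0232), Cyp2b10 (2.60, adjusted p = 0.0151), Cyp3a13, Cyp2c66, Cyp4v3, Cyp2c55 and Cyp4f14 (1.27, adjusted p = 0.0495). As deposited 6 were called, Cyp3a25 and Cyp2b10 higher and Cyp4f40, Cyp2s1, Cyp20a1 and Cyp39a1 lower, against 41% of all genes. Without IgA-null dam day 24 replicate 1 alone 5 members were called lower as deposited, against 14.6% of all genes. Without B6 dam replicate 1 alone 1 was called, against 0.0399%, and without B6 dam replicate 2 alone 2, against 32.4%. Cyp3a25 shows this, since 2.16 and 40.9 TPM in pups of the B6 dam lay on either side of 18.7, 10.4 and 7.66 TPM in pups of the IgA-null dam.

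At day 42, where the date in the labels was the same for both dams but the letter was not, no member was called on either scale, nor was any of the 15066 genes (0%). All 27 members had an adjusted p of 1 in limma, 0 had an unadjusted p under 0.05, and limma-voom called 0. Differences ran from -1.04 for Cyp2b10 to 0.15 for Cyp20a1, and the median half-width of the 95% interval was 0.769. Cyp4f40, called at day 14, was at 11.8 ± 1.49 TPM (SD, n = 3) in pups of the B6 dam and 12.6 ± 1.29 TPM (SD, n = 3) in pups of the IgA-null dam. Cyp2b10 was at 17.6, 0.599 and 2.15 TPM and 0.999, 2.46 and 0.556 TPM, overlapping apart from the library that stood apart. The dam difference itself varied over the 3 ages for Cyp4f40 and Cyp2s1 as deposited (moderated F test in limma, adjusted p = 0.0312 and 0.0452), against 1.75% of all genes. After scaling neither passed, with adjusted p of 0.488 and 0.761. Between days 24 and 14 alone the dam difference was lower at day 24 for 7 members as deposited, led by Cyp4b1 and Cyp2c65, against 33.7% of all genes (0.199% higher and 33.5% lower). After scaling 0 members were called, with 2 at an unadjusted p under 0.05 in limma, against 0.212% of all genes (0.0531% higher and 0.159% lower). Between days 42 and 14 it differed for 0 members in limma, with 4 at an unadjusted p under 0.05, against 0.126% of all genes.

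**Figure D5:**
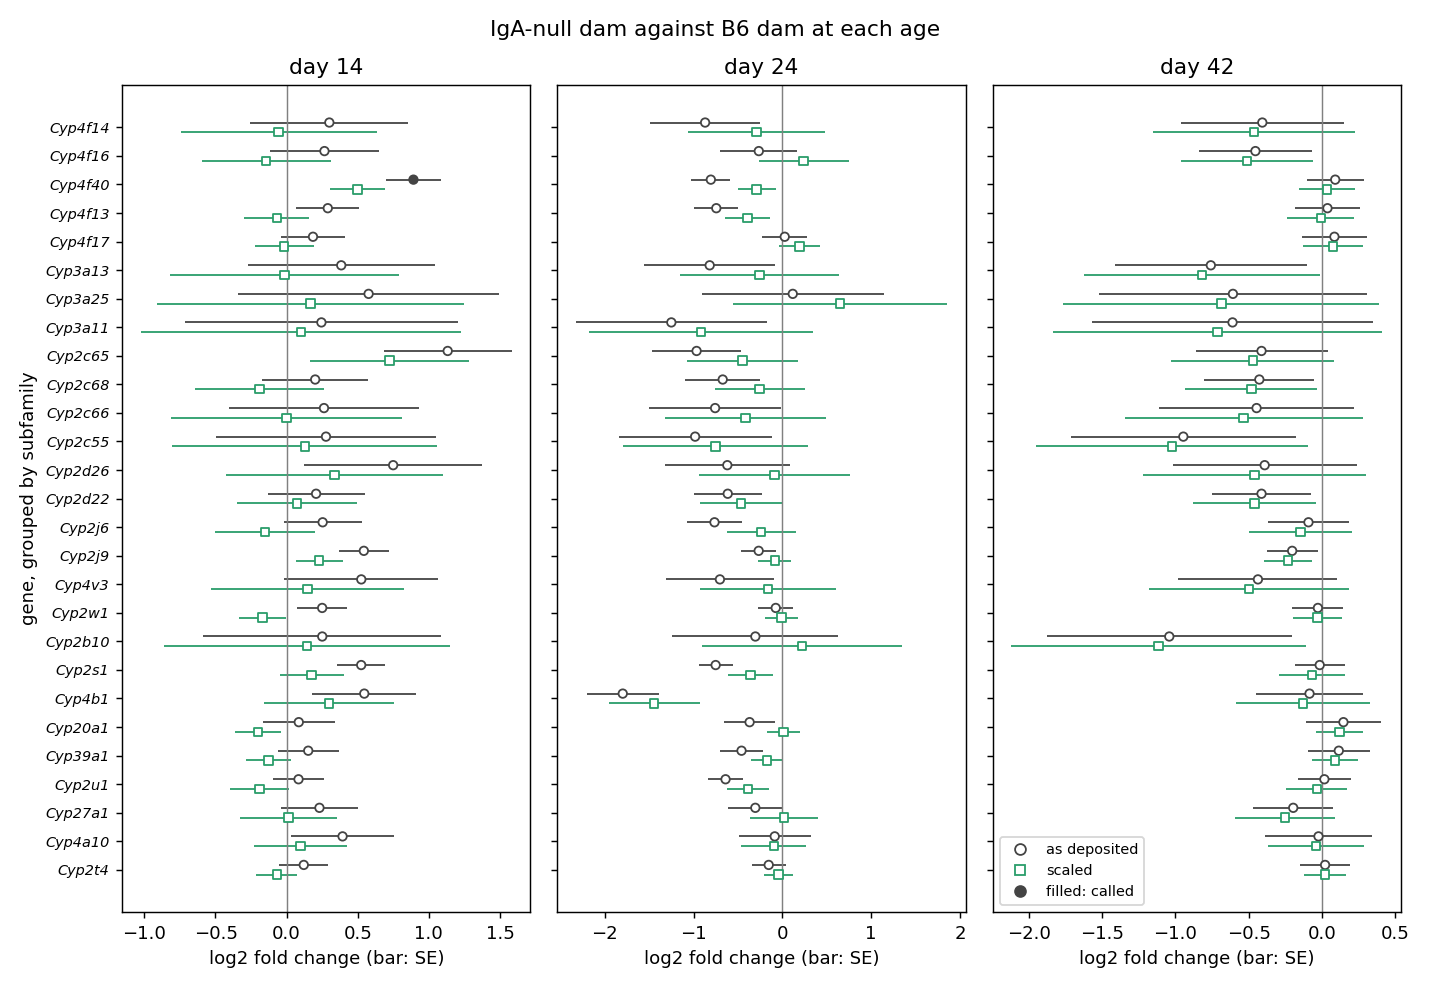
Log2 difference of the IgA-null against the B6 dam for each member at days 14, 24 and 42 with its standard error, as deposited (grey circles) and scaled (green squares), each panel with its own scale. The filled circle is Cyp4f40 at day 14 (0.89), all 27 deposited points lie above 0 at day 14, and scaling moves most of them left at day 14 and right at day 24.

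Few of the genes that serve the family passed on both scales. Of 9 electron transfer partners tested, 0 rose and 1 fell from day 14 to 24 in pups of the B6 dam, and 1 rose and 0 fell after scaling, with a scaled median of 0.34 against one near 0 over all genes. In IgA-null dam pups 6 fell as deposited, where 82.9% of all genes fell, and 2 rose and 1 fell after scaling. Por, the reductase, was at 19.3 ± 2.89 TPM (SD, n = 3), 17.3 ± 8.15 TPM (SD, n = 2) and 11.9 ± 0.991 TPM (SD, n = 3) in pups of the B6 dam at the 3 ages. Cyb5a, which encodes cytochrome b5, was at 26.6 ± 0.808 TPM (SD, n = 3) and 41.7 ± 11.3 TPM (SD, n = 3) at days 14 and 42. Of 12 genes of haem synthesis and breakdown, 1 rose and 2 fell to day 24 in pups of the B6 dam after scaling and 0 rose and 1 fell in pups of the IgA-null dam, as against 11 falls as deposited, beside the same 82.9% of all genes. Blvrb, a biliverdin reductase, fell by 1.22 in pups of the B6 dam (limma adjusted p = 0.0025) and by 1.57 in pups of the IgA-null dam (adjusted p = 2.2e-05), on both scales. Hmox1, the inducible haem oxygenase, fell by 1.15 in pups of the B6 dam (adjusted p = 0.0094). Alas1, the first enzyme of haem synthesis, was at 6.06 ± 0.249 TPM (SD, n = 3) and 9.94 ± 2.21 TPM (SD, n = 2) in pups of the B6 dam at days 14 and 24.

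Of 22 regulators tested, 1 rose and 5 fell to day 24 in pups of the B6 dam on either scale, with a scaled median of 0.04. Among IgA-null dam pups 19 fell as deposited, where 82.9% of all genes fell. After scaling 3 rose and 2 fell, against 8.12% higher and 8.8% lower over all genes. These shares in pups of the B6 dam were 1.62% higher and 6.99% lower as deposited and 7.54% higher and 6.1% lower after scaling. Ppard, a fatty acid sensor, was the riser in pups of the B6 dam, from 6.7 ± 1.5 TPM (SD, n = 3) to 18.3 ± 0.0303 TPM (SD, n = 2) (log2 change 1.34, adjusted p = 0.000752). Cebpa and Cebpb, transcription factors of metabolic tissues, fell in both dams and on both scales, by 1.41 and 1.59 in pups of the B6 dam and by 1.82 and 2.07 in pups of the IgA-null dam as deposited. Nr1h4, the bile acid receptor FXR, and its target Nr0b2 fell by 1.24 and 1.78 in pups of the B6 dam (adjusted p = 0.00717 and 0.0061). Nr1i2 was at 24.06 ± 2.05 TPM (SD, n = 3) at day 14 and 17.6 ± 2.44 TPM (SD, n = 2) at day 24 in pups of the B6 dam. Nr1i3, the receptor behind Cyp2b10 induction, was at 0.961 ± 0.24 TPM (SD, n = 3), 1.3 ± 1.05 TPM (SD, n = 2) and 0.733 ± 0.197 TPM (SD, n = 3) in pups of the B6 dam and at 0.72 ± 0.352 TPM (SD, n = 3) in pups of the IgA-null dam at day 24. Ahr was at 1.66 ± 0.102 TPM (SD, n = 3) and Hnf4a at 106 ± 4.58 TPM (SD, n = 3) at day 14 in pups of the B6 dam. Between the dams at day 14, 3 regulators, Ppara, Ppard and Pparg, were higher in pups of the IgA-null dam as deposited and 0 after scaling, and 0 of the partners and 0 of the haem genes passed. The shares of all genes called higher there were 8.32% as deposited and 1.89% after scaling. At days 24 and 42 none of the genes of these lists passed between the dams.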

How the data were processed

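RNA of sorted intestinal epithelial cells was made into SMART-seq v4 and Nextera XT libraries, per the labels' protocols. The authors deposited TPM values per gene symbol for 17 libraries. Bowtie2, Subread, DESeq2 and mm10 are named in the submitters' processing notes, without roles. TPM depends on the sum of all genes, so an abundant RNA lowers every other value. From TPM and GENCODE exon lengths whole reads were recovered: 95.3% of values under 100 reads lay within 0.01 reads of a whole number, and for 8 members the length was inferred. Genes at 1 TPM or more in at least 2 libraries (15066) were tested on log2(TPM + 1) with limma 3.58.1 (R 4.3.3, trend), 1 fit over all groups, Benjamini-Hochberg adjusted. Scripts used Python 3.11.15, numpy 2.4.6, pandas 2.3.3 and matplotlib 3.10.9, and the fits were tested on simulated data. Values per library are given for the 10 highest members, every member called between dams, and the 5 largest rises and falls among those called with age. Alternatives were pseudocounts of 0.1 and 5, no filter, 5 TPM, scaling, limma-voom, only the compared groups, a replicate block and leaving out each library. Scaled leave-one-out fits and fits without the libraries that stood apart were chosen after seeing the data. Members and lists were chosen with earlier results of these data known.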

Additional observations from a re-analysis of the deposited data

Results flagged for a closer look

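The dam difference was not the same at all ages for Cyp4f40 and Cyp2s1 as deposited, by a moderated F test over the 3 ages (limma adjusted p = 0.0312 and 0.0452). Between days 24 and 14 the difference of the IgA-null from the B6 dam changed by -1.70 for Cyp4f40 (adjusted p = 0.0117) and -1.28 for Cyp2s1 (adjusted p = 0.018) on the log2 scale. It changed by -2.10 for Cyp2c65 (adjusted p = 0.0353), -2.34 for Cyp4b1 (adjusted p = 0.024) and -1.03 for Cyp4f13 (adjusted p = 0.0352). Cyp2j9 and Cyp2u1 also passed, at -0.81 and -0.72 (adjusted p = 0.036 and 0.0487). These 7 members stand against 33.7% of all genes called, and after scaling 0 members and 0.212% of all genes were called by limma, with 2 members at an unadjusted p under 0.05.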

How the results depend on the processing

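Counts are members called by limma, as deposited unless said. Most are given without the share of all genes called in the same fit, so nothing about the family is read from their size. Scaling gave 0 between dams at day 14 (1 as deposited), and with the IgA-null dam 5 from day 14 to 24 (14), 5 from day 14 to 42 (13) and 0 from day 24 to 42 (6), and 0 in the F test over ages (2). Limma-voom gave 0, 4, 7, 0 and 0 for the same results. A pseudocount of 0.1 gave 2 between dams at day 24 (0) and 1 in the F test. A pseudocount of 5 gave 3 between dams at day 14 and 4 from day 14 to 42 with the B6 dam (7). No filter gave 3 from day 24 to 42 and 7 from day 14 to 42 with the IgA-null dam and 1 in the F test. A filter of 5 TPM gave 2 between dams at day 24, and 8 and 8 with the IgA-null dam from day 14 to 24 and to 42. Only the compared groups gave 3 between dams at day 14, 2 from day 14 to 24 with the B6 dam (6) and 10 from day 24 to 42 with the IgA-null dam. Without the libraries that stood apart there were 6 between dams at day 24 and 5 in the F test, and with scaling 7, 1 and 12 from day 14 to 42 with the B6 dam. Leaving out 1 library gave 0 to 1 between dams at day 14, 0 to 5 at day 24, 0 to 0 at day 42 and 0 to 5 in the F test. It gave 4 to 16, 5 to 6 and 0 to 1 with the B6 dam and 13 to 15, 7 to 11 and 3 to 6 with the IgA-null dam from day 14 to 24, 14 to 42 and 24 to 42. With scaling these ranges were 0 to 0, 0 to 1, 0 to 0 and 0 to 1, then 3 to 16, 3 to 7, 0 to 5, 4 to 6, 3 to 5 and 0 to 1. The highest count from day 14 to 24 with the B6 dam came without B6 dam day 24 replicate 1. From day 14 to 24 with the IgA-null dam the sign turned for Cyp2j6, Cyp2s1 and Cyp2u1, to 0.43, 0.27 and 0.0256 with scaling and to 0.46, 0.35 and 0.0204 with limma-voom. The cause of these moves was not tested. Same-numbered samples did not deviate together, with a median correlation of -0.0291 and 10 of 40 pairs above 0.1. The replicate block gave 0 in the F test, 5 from day 14 to 24 with the B6 dam, 1 between dams at day 14, and 9 from day 14 to 42 with the IgA-null dam. Members under about 1 TPM rest on few reads, which limits their changes.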

Other observations

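The 5 members of the 4F subfamily lie within 1 stretch of chromosome 17 (GRCm38), in the order Cyp4f17, Cyp4f16, Cyp4f40, Cyp4f14 and Cyp4f13, from chr17:32506050-32530143 to chr17:32924688-32947402. Their scaled log2 changes from day 14 to 42 with the B6 dam were -0.08, -0.85, 1.83, 3.00 and -0.16 in that order. With the IgA-null dam they were 0.01, -1.21, 1.37, 2.59 and -0.10. Over all 17 libraries Cyp4f40 and Cyp4f14 passed the limma test after scaling in both dams, and the other 3 passed in neither. Without both libraries that stood apart the scaled change of Cyp4f16 with the B6 dam was -1.31. As deposited Cyp4f16 and Cyp4f13 passed with the IgA-null dam, at -1.80 and -0.60, where 38.9% of all genes were called lower. The differences between neighbours were not tested.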
